A study of Mus musculus with 4 samples.

Results

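Imprinted genes of the mouse were examined for open chromatin in fetal female germ cells with and without Snf5. The set was a fixed list of 38 genes known to be imprinted in mouse, lying in 19 clusters or single loci, out of 21887 protein-coding genes in the RefSeq gene table of build GRCm38.p6 (mm10). For each gene, the deposited ATAC-seq peaks were read within 1 kb either side of the gene's start and end, and in the whole gene with 10 kb either side. ATAC-seq marks open chromatin by letting a transposase insert sequencing adapters into accessible DNA. Cells came from female C57BL/6 embryos at embryonic day 15.5 and had been sorted on the fluorescence of an Oct4-EGFP reporter. Genotype set apart 2 Control libraries from 2 libraries of the Snf5 conditional knockout, named Snf5 CKO in the labels, and every library was made from sorted Oct4-EGFP cells of the same sex, stage and strain. The driver of the Cre recombinase, the number of embryos pooled and whether libraries of a group came from separate animals are not stated in the labels, so p-values measure only the spread between these libraries, which may be technical.

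Imprinted genes are expressed mainly or only from the copy inherited from a given parent, because DNA methylation placed in the egg or sperm marks certain control regions on that copy. Many act on growth, placenta, brain or metabolism, and they often lie in clusters that share a single control region. Primordial germ cells erase these marks after they reach the gonad, and female germ cells lay down the maternal marks only later, in growing oocytes. Snf5, encoded by Smarcb1, is a core subunit of the SWI/SNF complex, which uses ATP to slide and evict nucleosomes. A peak list does not show which parental copy was open, and in a bulk library a region open in fewer cells cannot be told apart from a region less open in every cell.

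The knocked-out gene gave the first check of the labels. At the ends of Smarcb1 the summed peak length was 929 bp in Control 1 and 1139 bp in Control 2, and no peak was listed in either Snf5 CKO library. The 4 lists held 28625 to 45422 peaks and covered 16.9 to 27.4 Mb. Median peak length was 578 and 560 bp in the controls against 427 and 515 bp in Snf5 CKO 1 and 2, so the median peak was shorter across the whole genome in the knockout. Read counts were not used here and the depth of each library is unknown. Of 8 germ cell markers 7 had a gene-end peak in all 4 libraries, the exception being Nanos3 with a peak only in Control 1. Markers of the ovarian supporting cells were also open in every library at 5 of 6 genes, Foxl2, Fst and Wnt4 among them, while 0 of 6 endothelial and blood markers and 1 of 4 stromal markers were. Over all 6 supporting-cell markers the summed peak length was 7887 and 6602 bp in the controls against 4749 and 4503 bp in Snf5 CKO, with Amhr2 at 0 in every library. Over the 8 germ cell markers it was 7882 and 7785 bp against 6569 and 4938 bp, and 4 of the 7 kept germ cell markers and 4 of the 5 kept supporting-cell markers were shorter in both knockout libraries. Dppa3, a germ cell marker, was longer in both, and limma called 0 genes of either list at the adjusted threshold, with an unadjusted p below 0.05 at 3 germ cell and 2 supporting-cell markers. The part of supporting cells in the results below was not tested.

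Most imprinted genes were open at a gene end in every library. Genes with such a peak in all 4 libraries are here named kept, those with it in both controls alone lost, and those with it in both knockout libraries alone gained. Closed genes had no peak in any library, and other patterns were mixed. Kept members numbered 28 of 38, or 73.7%, against 55% of all protein-coding genes. Lost members numbered 1 of 38, against 2.97% of all genes, and gained members 0, against 0.187%. Closed members numbered 7 (Mest, Snrpn, Igf2, Slc22a18, Ddc, Commd1 and Rtl1), against 33.6% of all genes, and mixed members 2 (Slc38a4 and Impact), against 8.29%. Among the 32 members whose strand was known, the start was open in every library at 24 genes and the end at 4. These members were thus open more often at the start than at the end. The same shares over all protein-coding genes were not counted, and at Ascl2 and Phlda2 a peak touched both windows. With 2 libraries against 2 a permutation of the libraries cannot give a two-sided p below 0.33 for any single gene.

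At the kept members the peaks were shorter in the knockout in nearly all cases, as they were at most genes. Peak length is the summed length of the peaks that touch the windows at the gene's start and end. The median over the 28 kept members was 1221 and 1193.5 bp in Control 1 and 2, against 883 and 813 bp in the knockout libraries. In 25 of the 28 both Snf5 CKO lengths were below both control lengths, in 0 both were above, and in 3 (Blcap, Magel2 and Zrsr1) the groups overlapped. The background for that count is high: 77.3% of the 12030 protein-coding genes kept in all libraries had shorter peaks in both Snf5 CKO libraries, and 1.27% longer. The log2 ratio, knockout to control, is the difference between the group means of log2 length. It had a median of -0.51 for the members, ranging from -2.0 at Peg3 and Usp29 to 0.41 at Magel2, against -0.41 for all kept genes. Imprinted genes thus moved with the genome-wide shift in length. Fold enrichment over local background is the value given to each peak by the authors' peak caller, and where several peaks touch a gene's windows the highest is given. Its median over the kept members was 3.98, 4.02, 4.21 and 4.31 in Control 1, Control 2, Snf5 CKO 1 and Snf5 CKO 2, and 4.77, 4.70, 5.36 and 5.18 over all kept genes. Folds are printed to show how strong a peak was within its own list, and their differences between lists were not tested.

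**Figure D1:**
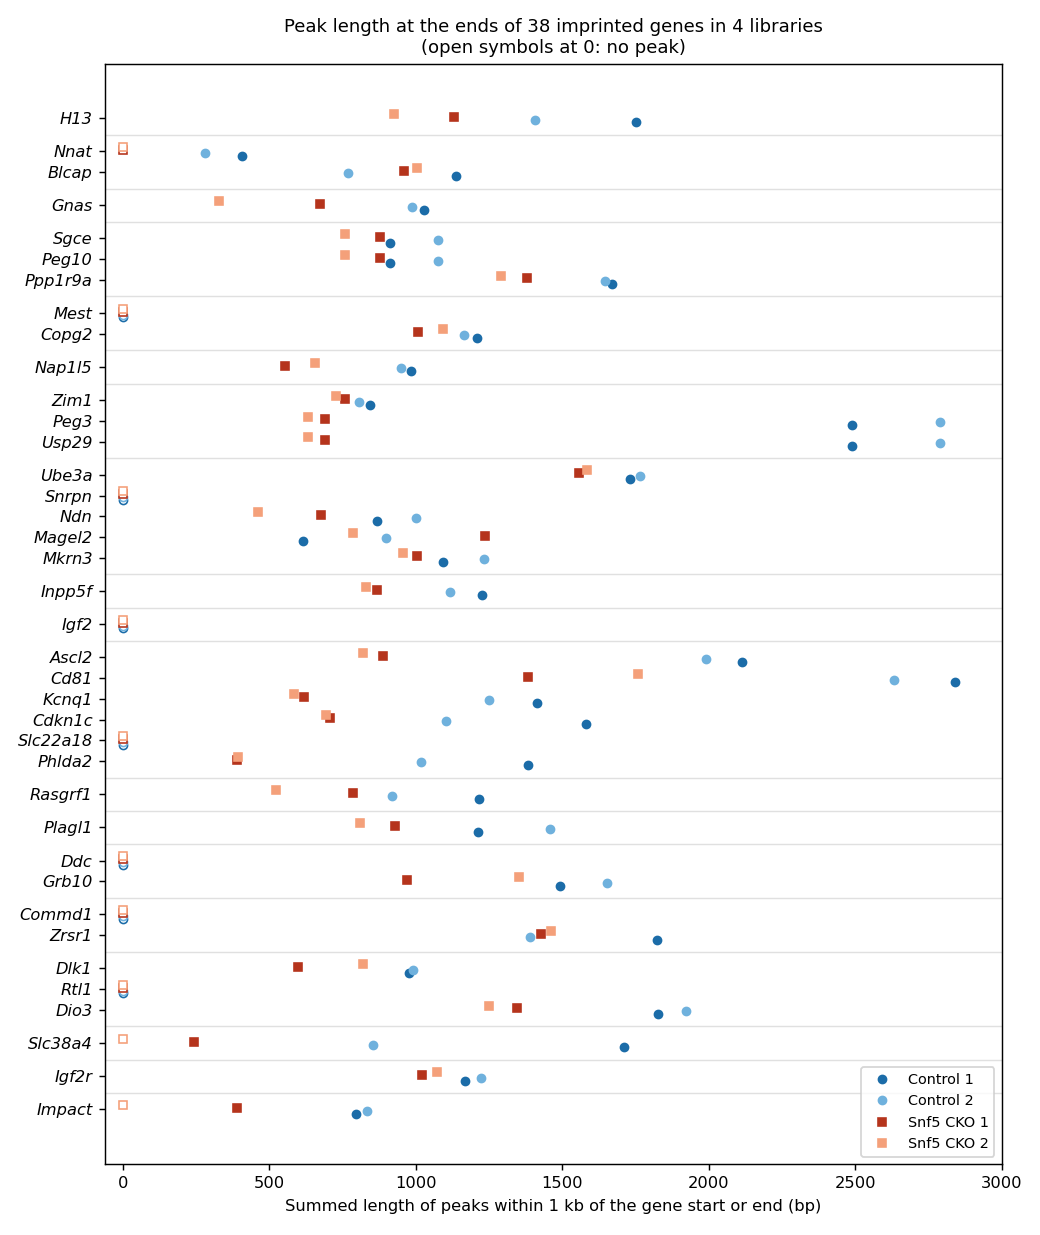
Summed length in bp of the peaks within 1 kb of the start or end of each of the 38 imprinted genes, grouped by cluster, with circles for the 2 Control libraries and squares for the 2 Snf5 CKO libraries. Squares lie to the left of circles at 25 of the 28 genes with a peak in every library, and open symbols at 0 mark libraries with no peak, as in all 4 libraries at Mest, Snrpn and Igf2.

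The test of length was limma on log2 length over all 12030 kept genes, with Benjamini-Hochberg adjustment and a threshold of 0.05. By it 970 genes (8.06%) were shorter and 4 (0.0333%) longer, and 5 of the 28 members were shorter and 0 longer. The 5 members were Peg3 and Usp29, which share their peaks and count as a single locus, and Ascl2, Kcnq1 and Phlda2, all in the Kcnq1 cluster. Unadjusted limma p-values were below 0.05 at 14 members and at 5154 of all kept genes. When each library was centred on its median log2 length, limma called 0 members and 0 of all genes at the adjusted threshold, with 6 members and 2003 genes at an unadjusted p below 0.05, and the median of the members was -0.068 against 0.033 for all. After centring 17 of the 28 members had a negative log2 ratio, where 26 had one before. The log2 ratios below come from fits without centring unless stated. A small negative value among them therefore does not show shortening beyond the general shift. Leaving out Control 1, Control 2 or Snf5 CKO 2 also left 0 members past the limma threshold, while leaving out Snf5 CKO 1 gave 7.

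**Figure D2:**
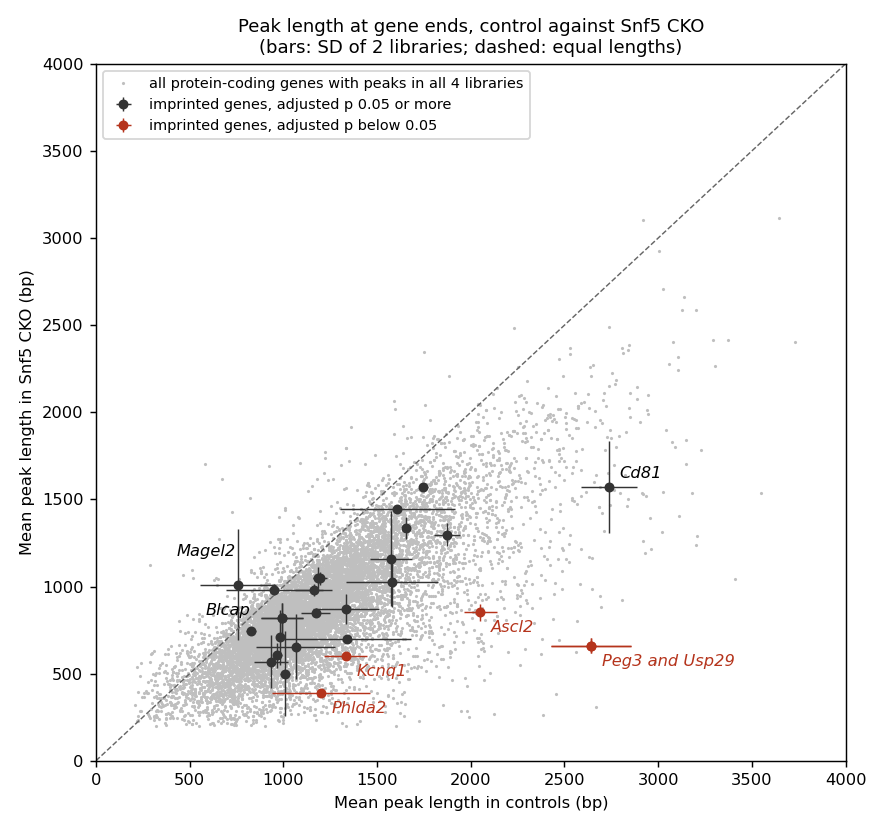
Mean peak length at gene ends in the 2 Control libraries (x axis, bp) against the mean in the 2 Snf5 CKO libraries (y axis, bp), with imprinted genes as large points with SD bars and all 12030 kept protein-coding genes as small grey points. Peg3 and Usp29, Ascl2, Kcnq1 and Phlda2, the members called by limma, lie well below the dashed line of equal lengths, as does Cd81, and Magel2 lies above it with SD bars that reach it.

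The Kcnq1 cluster on chromosome 7, whose control region is the start of the long noncoding RNA Kcnq1ot1 inside Kcnq1, held 3 of the 5 members called shorter. Ascl2, a basic helix-loop-helix factor of the trophoblast, had peaks of 2112 and 1990 bp in the controls and 888 and 818 bp in Snf5 CKO. Each control had a single peak over the Ascl2 start where each Snf5 CKO library had a pair of separate peaks, and the groups did not overlap in length. The log2 ratio for Ascl2 was -1.27 (SE 0.121) with an adjusted p of 0.0399 by limma. Kcnq1, a potassium channel subunit, had 1414 and 1250 bp against 617 and 585 bp, a log2 ratio of -1.15 (SE 0.129, limma adjusted p = 0.0402). At Phlda2, which encodes a pleckstrin homology protein that restrains placental growth, the lengths were 1384 and 1016 bp against 388 and 391 bp, a log2 ratio of -1.61 (SE 0.189, limma adjusted p = 0.0402). The knockout libraries were nearly equal at Phlda2, while the controls differed clearly. The highest fold at Ascl2 was 3.51 in both controls and 4.54 and 3.94 in the knockout libraries, and at Kcnq1 it was 4.51 and 4.78, then 3.69 and 4.0.

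Other members of the Kcnq1 cluster were shorter in both knockout libraries without passing the threshold in the main fit. Cdkn1c, which encodes the cyclin-dependent kinase inhibitor p57, had 1580 and 1103 bp in the controls and 708 and 692 bp in Snf5 CKO (log2 ratio -0.92, limma adjusted p = 0.0640). The stronger region at Cdkn1c was present in all 4 libraries, and a weaker one at chr7:143459231-143459794, within the gene body, was listed in both controls (397 and 388 bp, fold 1.97 and 2.04) and in neither knockout library. An alternative chosen after seeing the data counted all pieces of each merged region near the gene ends. By it the log2 ratio of Cdkn1c was -1.13, with a limma adjusted p of 0.0425. The limma adjusted p of Cdkn1c was also 0.0483 with 500 bp windows and 0.0422 with 2 kb windows. It was 0.0368 with peaks of −log10 q of at least 3, and 0.0403 with lists cut to the same length. With the longest touching peak it was 0.0436. After centring on library medians no member passed. Cd81, a tetraspanin, had 2842 and 2632 bp against 1384 and 1757 bp (log2 ratio -0.81, limma adjusted p = 0.0571), and part of that length belongs to a peak at the neighbouring Tssc4. Slc22a18, a putative organic cation transporter, had no peak at either end in any library, and a region between it and Cdkn1c at chr7:143464883-143465270 was among the lost ones (fold 2.63 and 2.49 in the controls).

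**Figure D3:**
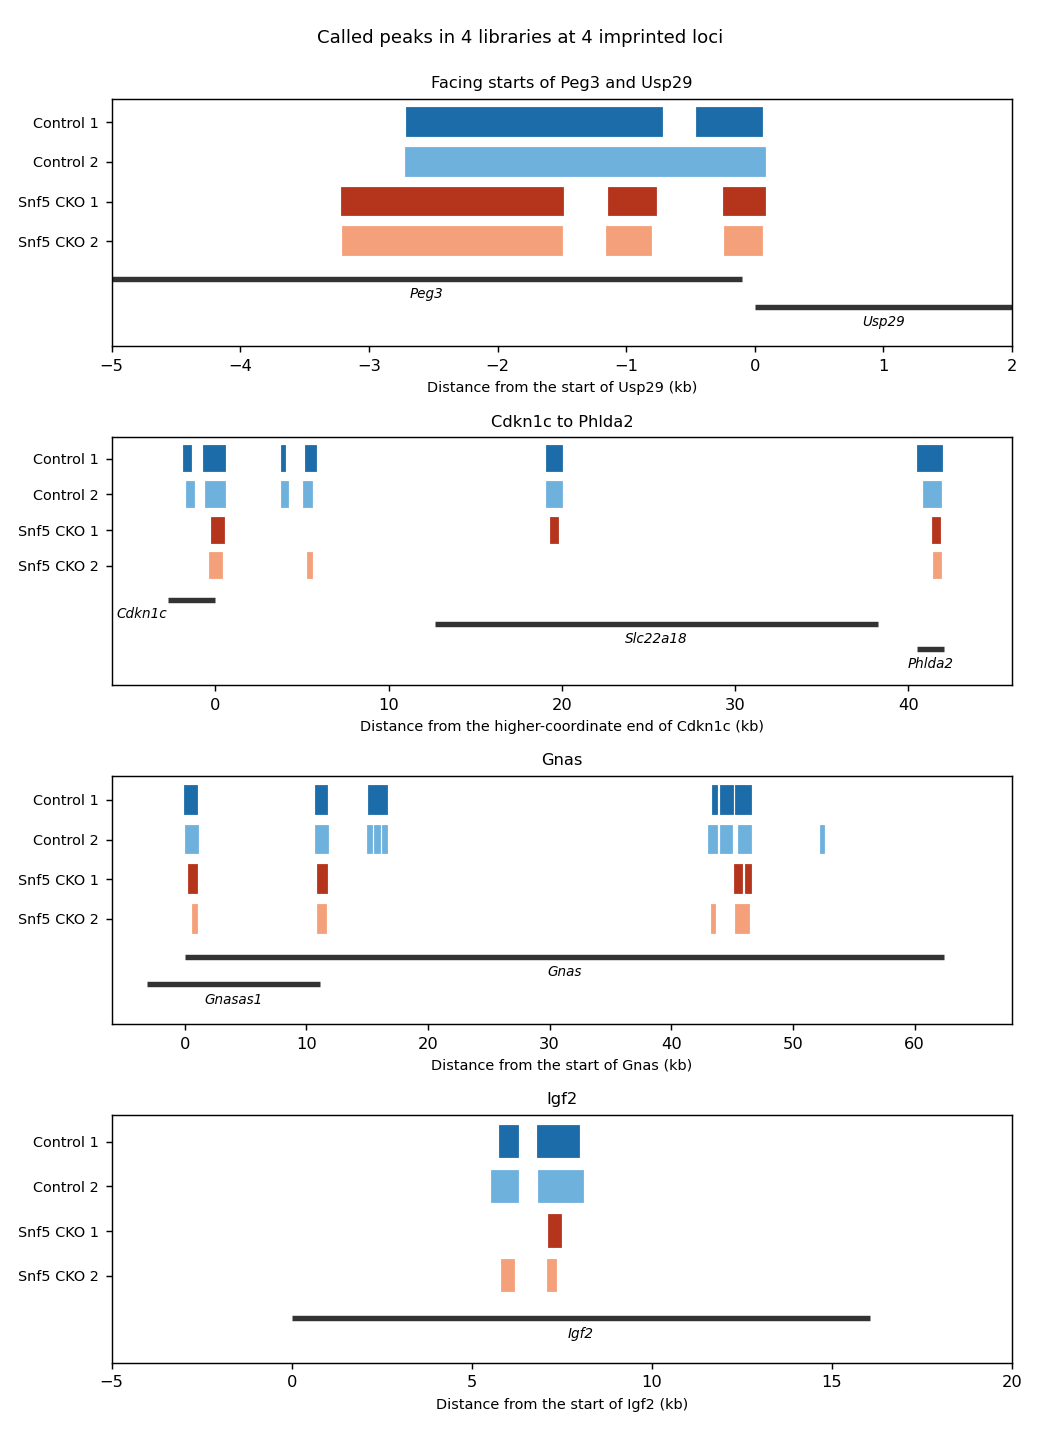
Called peaks in the 4 libraries at the facing starts of Peg3 and Usp29, from Cdkn1c to Phlda2, over Gnas and over Igf2, against distance in kb from the named gene end, with gene bodies as dark lines. At Peg3 the controls have 1 or 2 long pieces where Snf5 CKO has 3 separate ones, and over Gnas and Igf2 fewer or shorter bars remain in the Snf5 CKO rows.

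The start of Kcnq1ot1, at chr7:143294991-143296871, was open in every library, with 1817 and 1709 bp in the controls and 858 and 1303 bp in Snf5 CKO. Over the 6 member genes of the cluster with 10 kb either side, peaks covered 16672 and 13348 bp in the controls and 6267 and 6675 bp in Snf5 CKO, a ratio of 0.431. Both knockout values were less than the lower control value. Lost regions inside Kcnq1 lay at chr7:143166962-143167599 and chr7:143375826-143376379, the latter with a fold of 3.35 and 3.93 in the controls.

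At Peg3 and Usp29 the change lay in how the open region was divided. Peg3 encodes a zinc-finger protein expressed from the paternal copy, Usp29 encodes a member of the ubiquitin-specific protease family, and they start close together on opposite strands. Peaks touching the shared windows summed to 2489 and 2791 bp in the controls and 690 and 630 bp in Snf5 CKO, with a log2 ratio of -2.0 (SE 0.132, limma adjusted p = 0.0399). The groups stood far apart and the libraries within each group lay close together. The merged region at chr7:6727352-6730640 shows what that number counts. Control 2 had a single peak of 2791 bp there and Control 1 had pieces of 1980 and 509 bp, while Snf5 CKO 1 and 2 had 3 pieces each, of which the longest, 1718 and 1704 bp, ended short of the 1 kb window. Counting all pieces, the region held 2489, 2791, 2408 and 2334 bp in Control 1, Control 2, Snf5 CKO 1 and Snf5 CKO 2, and the log2 ratio was -0.15. With centring as well, it was 0.28 (limma adjusted p = 0.358), so the call at this locus rests on which pieces touch the window. The promoter of Peg3 is printed because all 4 libraries kept the peak over it: 246, 266, 271 and 247 of its 300 bases lay under a peak in Control 1, Control 2, Snf5 CKO 1 and Snf5 CKO 2. The run is read 5′ to 3′ on the minus strand of chr7:6730370-6730669, from RefSeq on GRCm38.p6, as are the other promoters below with their own positions, and it holds no letter in capitals because neither word searched for (below) occurs in it.
Peg3: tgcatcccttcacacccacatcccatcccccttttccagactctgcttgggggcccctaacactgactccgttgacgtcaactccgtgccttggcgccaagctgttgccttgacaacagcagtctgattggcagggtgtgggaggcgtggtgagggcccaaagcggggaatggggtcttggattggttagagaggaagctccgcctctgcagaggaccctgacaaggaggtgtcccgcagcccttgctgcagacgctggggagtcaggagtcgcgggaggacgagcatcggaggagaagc

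Zim1, a zinc-finger gene beside Peg3, had 844 and 807 bp in the controls and 759 and 726 bp in Snf5 CKO, with the highest fold of the cluster in each library (6.07, 6.37, 7.47 and 7.64). Inside Usp29, far from its ends, regions at chr7:6918104-6918621 and chr7:6935491-6936353 were gained, and a region at chr7:6913395-6914251 was lost. Over the 3 genes of the cluster, covered bases were 7130 and 8820 in the controls and 11050 and 6144 in Snf5 CKO 1 and 2, so the groups overlapped.

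Igf2, a fetal growth factor expressed from the paternal copy, was closed at its outermost annotated start and end in all libraries and open inside the gene. Around the start 8012 bp into the gene, peaks measured 1141 and 1202 bp in the controls and 347 and 231 bp in Snf5 CKO. Near the start 5545 bp into the gene they measured 494 and 723 bp in the controls, none in Snf5 CKO 1 but 344 bp in Snf5 CKO 2. Over Igf2 with 10 kb either side, covered bases were 1635 and 1925 in the controls against 347 and 575 in Snf5 CKO, a ratio of 0.259. The knockout values lay well below the controls. The receptor that clears the growth factor, Igf2r, had 1169 and 1222 bp at its ends in the controls and 1022 and 1073 bp in Snf5 CKO (log2 ratio -0.19, limma adjusted p = 0.244). The start of Airn, the noncoding RNA that silences the paternal Igf2r and begins inside that gene, was open in all libraries with 1484 and 1662 bp in the controls and 1417 and 609 bp in Snf5 CKO 1 and 2. A region inside Igf2r at chr17:12750706-12751563 was lost, with a fold of 3.98 and 3.69 in the controls.

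Gnas encodes the stimulatory G protein alpha subunit and has several alternative starts under different parental control. At the outermost start the peaks measured 1027 and 988 bp in the controls and 673 and 328 bp in Snf5 CKO 1 and 2 (log2 ratio -1.10, SE 0.375, limma adjusted p = 0.105). The knockout libraries differed from each other by about as much as Snf5 CKO 1 differed from the controls. Within 1 kb of the start 45686 bp downstream, inside the gene, every library had peaks, with 2218 and 1934 bp against 915 and 1075 bp. The region over that start itself, chr2:174329565-174330899, had 1266 and 1050 bp against 915 and 1075 bp, so its groups overlapped. The remaining control length, 952 and 884 bp, was a separate region at chr2:174328417-174329372, which also counts at the next start. The start 43429 bp downstream had 1280 and 1518 bp in the controls, none in Snf5 CKO 1 but 316 bp in Snf5 CKO 2. Regions at chr2:174299356-174300955, 1464 and 1106 bp long in the controls, and at chr2:174328417-174329372 were lost, both with low control folds between 2.17 and 2.4. The start of the antisense RNA Gnasas1 was kept with 872 and 945 bp against 769 and 625 bp. Covered bases over Gnas with 10 kb either side were 5909 and 5807 in the controls and 2357 and 2344 in Snf5 CKO, a ratio of 0.401 with little spread within groups.

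Several members are retrogenes, or genes lying inside a host gene. Nnat, which encodes the membrane proteolipid neuronatin and lies inside Blcap, was the only lost member, with 407 and 280 bp in the controls and none in either knockout library. The control peaks at Nnat were weak (fold 3.04 and 3.24) and did not touch the same end, since Control 1 had its peak at the gene's start and Control 2 at its end. Control 1 also had a 248 bp peak that overlapped the Control 2 peak, just outside the window at the gene's end. With the gene start alone counted, 0 members were lost. The host gene Blcap, an apoptosis-linked gene, had 1136 and 768 bp in the controls and 959 and 1004 bp in Snf5 CKO, so its groups overlapped. The Nnat promoter at chr2:157559828-157560127 (plus strand) is shown because the gene is the lost one, and no base of it lay under a peak in any library, the Control 1 peak beginning further inside the gene. Capitals mark TGCCGC, the word bound by the imprint-protecting factor ZFP57 when methylated, or its reverse complement GCGGCA.
Nnat: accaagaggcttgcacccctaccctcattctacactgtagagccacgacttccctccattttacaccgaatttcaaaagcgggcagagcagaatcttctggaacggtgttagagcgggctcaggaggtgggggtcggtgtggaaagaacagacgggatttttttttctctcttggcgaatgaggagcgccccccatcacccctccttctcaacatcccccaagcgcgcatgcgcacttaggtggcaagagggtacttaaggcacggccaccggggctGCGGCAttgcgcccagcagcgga

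**Figure D4:**
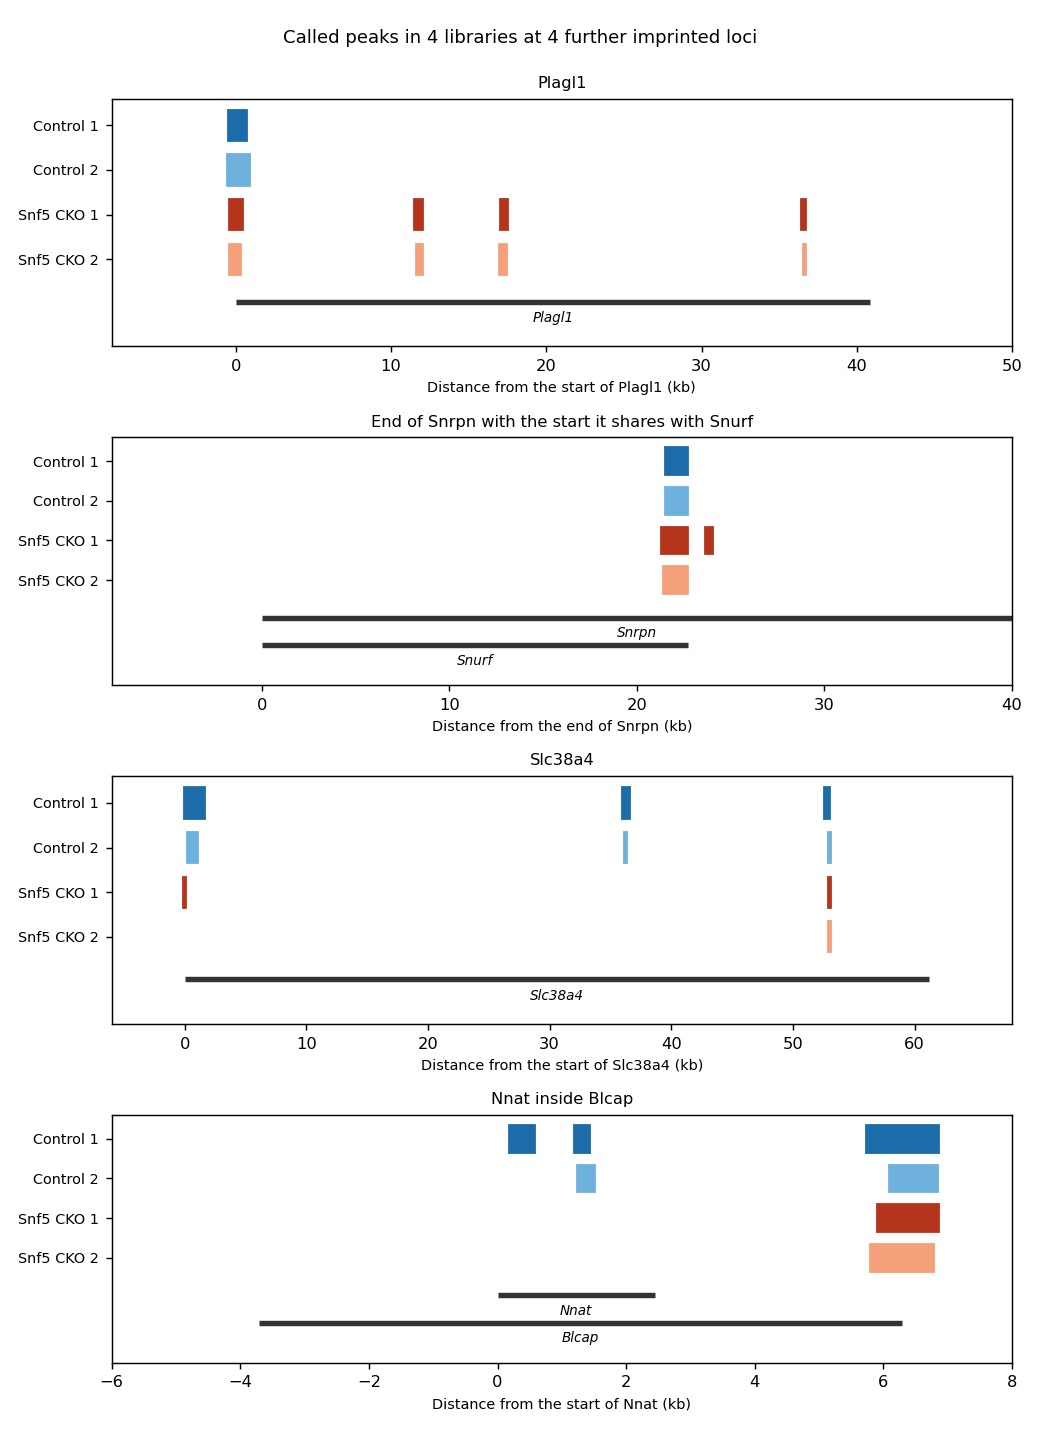
Called peaks in the 4 libraries at Plagl1, at the end of Snrpn with the start it shares with Snurf, at Slc38a4 and at Nnat inside Blcap, against distance in kb from the named gene end, with gene bodies as dark lines. Plagl1 has 3 bars inside the gene in the Snf5 CKO rows alone, the Snurf start has a bar in every row, and the bars over Nnat are in the control rows alone.

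Nap1l5, a nucleosome assembly protein-like retrogene inside Herc3, had 985 and 950 bp in the controls and 554 and 657 bp in Snf5 CKO (log2 ratio -0.68, limma adjusted p = 0.0572). Its groups did not overlap. Zrsr1, a splicing-factor retrogene inside Commd1, had 1824 and 1391 bp in the controls and 1428 and 1463 bp in Snf5 CKO, with both knockout lengths inside the control range. Commd1, which acts in copper transport, had no peak at its outermost ends, and a start 2255 bp into the gene was open with 992 and 1061 bp against 574 and 753 bp and folds of 5.49, 5.71, 8.47 and 6.51. H13, a signal peptide peptidase, had 1753 and 1408 bp in the controls and 1130 and 924 bp in Snf5 CKO (log2 ratio -0.62, limma adjusted p = 0.0872). The retrogene Mcts2 inside H13 was kept, with 1101 and 942 bp against 616 and 642 bp, and a small region inside H13 at chr2:152693257-152693550 was lost (fold 3.11 and 4.19 in the controls). Inpp5f, an inositol phosphatase, had 1227 and 1118 bp against 867 and 831 bp (log2 ratio -0.46, limma adjusted p = 0.0731), and a region past its end at chr7:128698390-128699212 was lost. At H13, Nap1l5 and Inpp5f the lengths of the groups stood apart, while none passed the adjusted threshold.

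Nap1l5 and Mest hold the most ZFP57 words of any member promoter. The minus-strand promoter of Nap1l5 at chr6:58907077-58907376 has 2 of them and 17 CpG, and 300, 254, 244 and 300 of its bases lay under a peak in Control 1, Control 2, Snf5 CKO 1 and Snf5 CKO 2.
Nap1l5: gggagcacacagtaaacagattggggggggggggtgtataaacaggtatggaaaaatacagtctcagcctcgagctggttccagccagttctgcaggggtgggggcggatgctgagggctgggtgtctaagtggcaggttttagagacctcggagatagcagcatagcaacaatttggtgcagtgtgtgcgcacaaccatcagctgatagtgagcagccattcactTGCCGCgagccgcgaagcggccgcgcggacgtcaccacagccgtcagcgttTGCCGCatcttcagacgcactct

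Mest, a paternally expressed gene of the hydrolase fold, was closed at its outermost start but open at the start 4544 bp inside, with 598 and 855 bp in the controls and 554 and 420 bp in Snf5 CKO. The shorter summed length in the controls was only slightly above the longer one in the knockout. In Control 2 it included a separate peak of 208 bp, and the region over the start had 598 and 647 bp against 554 and 420 bp. That start at chr6:30737800-30738099 (plus strand) also has 2 words and 17 CpG, and 246, 300, 202 and 189 of its bases lay under peaks in the same order of libraries. It was chosen for printing after its values were seen.
Mest: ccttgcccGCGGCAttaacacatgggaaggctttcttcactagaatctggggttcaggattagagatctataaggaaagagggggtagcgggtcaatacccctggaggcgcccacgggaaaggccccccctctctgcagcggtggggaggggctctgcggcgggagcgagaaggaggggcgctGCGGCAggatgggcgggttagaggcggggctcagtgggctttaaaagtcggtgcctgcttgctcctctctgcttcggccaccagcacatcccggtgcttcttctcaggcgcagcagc

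Copg2, a coatomer subunit gene that overlaps the end of Mest, had 1210 and 1165 bp in the controls and 1007 and 1094 bp in Snf5 CKO (log2 ratio -0.18, limma adjusted p = 0.282), and a region inside it at chr6:30804478-30804994 was lost. The Peg10 cluster, also on chromosome 6, holds Peg10, a retrotransposon-derived gene needed in the placenta, and Sgce, the epsilon-sarcoglycan, whose facing ends share their peaks. These measured 913 and 1074 bp in the controls and 878 and 758 bp in Snf5 CKO, and the groups lay close. Each library had a pair of peaks there, all weak, with folds from 2.47 to 3.24. A peak just inside Peg10, at chr6:4748587-4749535, was kept with 896, 574, 598 and 597 bp in Control 1, Control 2, Snf5 CKO 1 and Snf5 CKO 2. Regions inside Sgce at chr6:4723824-4724280 and chr6:4732973-4733467 were lost. Ppp1r9a, which encodes the actin-binding neurabin, had 1668 and 1646 bp at its start in the controls and 1380 and 1292 bp in Snf5 CKO (log2 ratio -0.31, limma adjusted p = 0.118). It also held the region of highest fold among all member regions in the controls and in Snf5 CKO 1, chr6:4923732-4924292, whose fold was 11.3, 9.08, 9.55 and 9.45 and whose length, between 544 and 556 bp, was nearly equal in the 4 libraries. A region further inside Ppp1r9a at chr6:5019147-5019734 was gained, with a fold of 5.14 and 4.47.

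The Prader-Willi/Angelman cluster on chromosome 7 was among those whose covered bases overlapped between the groups. Ube3a, the ubiquitin ligase affected in Angelman syndrome, had 1730 and 1764 bp in the controls and 1557 and 1583 bp in Snf5 CKO (log2 ratio -0.15, limma adjusted p = 0.309). Snrpn, a splicing protein gene whose upstream starts reach far into the cluster, was closed at 3 annotated starts and open at the start 444978 bp into the gene, which it shares with Snurf. There the peaks measured 1234 and 1244 bp in the controls and 1898 and 1327 bp in Snf5 CKO 1 and 2, so both knockout lengths were above both controls. The peak over that start itself, at chr7:60003758-60005243, was 1476 and 1327 bp long in Snf5 CKO, and the remainder in Snf5 CKO 1 was a separate nearby peak. Its fold was 4.52 and 4.38 in the controls, then 3.61 and 4.08 in the knockout libraries.

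The 3 small intronless genes of the same cluster had different patterns. Ndn, encoding the MAGE-family protein necdin, had 868 and 999 bp in the controls and 677 and 460 bp in Snf5 CKO (log2 ratio -0.74, limma adjusted p = 0.0941). In Snf5 CKO 1 that length was a peak of 477 bp with a separate weak peak of 200 bp. With the longest touching peak alone the log2 ratio of Ndn was -0.99 (limma adjusted p = 0.0386), while no member passed after centring. Magel2, its close relative, had 613 and 899 bp against 1235 and 784 bp, with a log2 ratio of 0.41 and groups that overlapped (limma adjusted p = 0.340). The length in Snf5 CKO 1 was a start peak of 1017 bp and a 218 bp peak at the gene's end, found in that library alone. With the longest touching peak the log2 ratio of Magel2 was 0.27. Mkrn3, a makorin ring-finger gene linked to the timing of puberty, had 1093 and 1233 bp against 1005 and 956 bp (log2 ratio -0.24, limma adjusted p = 0.20). Covered bases over the cluster were 7644 and 8730 in the controls and 9830 and 7599 in Snf5 CKO, a ratio of 1.06 with overlapping groups. Over Snrpn alone with 10 kb either side they were 2567 and 2651 in the controls against 5066 and 3816 in Snf5 CKO. That is a ratio of 1.70, with both knockout values above both controls. A small region inside Snrpn at chr7:60209345-60209640 was gained, and a region inside Ube3a at chr7:59234845-59235617 was lost.

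Plagl1 was the only one of the 19 clusters and single loci where covered bases were higher in both knockout libraries than in both controls. Plagl1 encodes a zinc-finger factor, also called Zac1, that slows growth and is expressed from the paternal copy. Its start peak was shorter in the knockout, 1211 and 1457 bp in the controls against 930 and 808 bp (log2 ratio -0.62, limma adjusted p = 0.0724). Inside the gene, however, regions at chr10:13102306-13102876, chr10:13107809-13108352 and chr10:13127263-13127579 were gained. The middle one had a fold of 6.64 in Snf5 CKO 1 and 3.29 in Snf5 CKO 2. Together with the start these gave 2286 and 1943 covered bp in Snf5 CKO against 1211 and 1457 bp in the controls, a ratio of 1.59. Plagl1 therefore held 3 of the 7 gained regions of all members. Its promoter at chr10:13090582-13090881 (plus strand) lay whole under a peak in every library and holds 1 ZFP57 word and 26 CpG.
Plagl1: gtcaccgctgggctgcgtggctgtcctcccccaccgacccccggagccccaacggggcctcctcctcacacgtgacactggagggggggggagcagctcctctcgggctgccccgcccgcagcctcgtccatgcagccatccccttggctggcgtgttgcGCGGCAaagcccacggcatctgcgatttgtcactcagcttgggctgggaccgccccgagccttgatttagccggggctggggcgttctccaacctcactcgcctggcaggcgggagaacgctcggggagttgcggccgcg

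Grb10, an adaptor that restrains insulin receptor signalling, had 1493 and 1654 bp at its ends in the controls and 969 and 1352 bp in Snf5 CKO 1 and 2 (log2 ratio -0.46, limma adjusted p = 0.159). A further start 9457 bp into Grb10 had a peak within 1 kb only in Snf5 CKO 1, where the peak of a region open in all libraries reached further. Ddc, the aromatic amino acid decarboxylase gene next to Grb10, was closed at both annotated starts, although regions inside and beside it were open in all libraries. A region inside Ddc at chr11:11821626-11821977 was lost, with a fold of 4.60 and 3.01 in the controls. The Grb10 promoter at chr11:12037371-12037670 (minus strand), with 45 CpG and 1 ZFP57 word, lay whole under a peak in all 4 libraries.
Grb10: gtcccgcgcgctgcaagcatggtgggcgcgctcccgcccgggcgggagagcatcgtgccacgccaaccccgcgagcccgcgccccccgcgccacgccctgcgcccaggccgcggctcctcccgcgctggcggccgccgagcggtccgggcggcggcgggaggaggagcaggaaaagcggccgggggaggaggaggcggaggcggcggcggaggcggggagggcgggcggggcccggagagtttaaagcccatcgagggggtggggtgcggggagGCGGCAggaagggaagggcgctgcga

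At the Dlk1 cluster on chromosome 12 Dlk1 and Dio3 kept their peaks and Rtl1 had none. Dlk1, which encodes a Notch-related membrane protein of growth and fat tissue, had 978 and 989 bp in the controls and 597 and 818 bp in Snf5 CKO (log2 ratio -0.49, limma adjusted p = 0.127). Dio3, the deiodinase that inactivates thyroid hormone, had 1826 and 1923 bp against 1346 and 1251 bp (log2 ratio -0.53, limma adjusted p = 0.0620). The groups did not overlap at either gene. Rtl1 is a retrotransposon-like gene of the placenta, and the noncoding Meg3 had at its ends only a 209 bp peak in Control 2. The cluster's covered bases were 3389 and 3372 in the controls and 1943 and 2387 in Snf5 CKO, a ratio of 0.640.

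Slc38a4, Rasgrf1 and Impact are single loci. Slc38a4, an amino acid transporter gene, had 1709 and 854 bp at its start in the controls, 241 bp in Snf5 CKO 1 and none in Snf5 CKO 2. A further start 35597 bp into Slc38a4 was the only annotated start of any member to be lost, through the region at chr15:97019341-97020026 (686 and 200 bp, fold 3.54 and 4.05 in the controls). Covered bases over the locus were 2881 and 1281 in the controls against 515 and 266 in Snf5 CKO, a ratio of 0.188 with controls that differed widely. Impact, which encodes an inhibitor of the Gcn2 kinase of the stress response, showed 794 and 832 bp in the controls, 390 bp in Snf5 CKO 1 and none in Snf5 CKO 2 at its ends. Elsewhere in the Impact locus a region at chr18:12973002-12974625 was open in all libraries with 1550, 1537, 1555 and 1505 bp. Both genes were thus short of the lost call by a single peak in Snf5 CKO 1. Rasgrf1, a Ras guanine nucleotide exchange factor of the brain, had 1215 and 918 bp in the controls and 787 and 522 bp in Snf5 CKO (log2 ratio -0.72, limma adjusted p = 0.121).

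Peaks of the 4 libraries that overlapped by at least 1 bp were then merged across each gene with 10 kb either side. The 38 members held 154 merged regions, of which 56 were kept, 18 lost, 7 gained and 73 mixed. The lost share was 11.7% and the gained share 4.55%, beside 8.58% and 3.85% of the 44220 merged regions at all protein-coding genes, where 35.7% were kept and 51.9% mixed. Each control had 11 regions that no other library shared, Snf5 CKO 1 had 25 and Snf5 CKO 2 had 3. Over all protein-coding genes these counts were 6508 and 3302 for the controls, then 6981 and 619 for the knockout libraries in the same order. Of the 35 regions that came within 1 kb of the start or end of a member gene, 29 were kept, 2 lost and 0 gained. Of the 119 others 27 were kept, 16 lost and 7 gained. Over all protein-coding genes 5.64% of regions within 1 kb of a gene end were lost and 0.885% gained, and 10.1% and 5.34% of those further away. That split used the ends of any protein-coding gene, so it is not quite alike: the 119 others include regions at ends of genes outside the set, such as Mcts2. Among the 56 kept regions 35 were shorter and 3 longer in both knockout libraries, with a median log2 ratio of -0.38. For the kept regions of all genes these were 68.4%, 3.63% and -0.37.

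Covered bases over all 38 genes with 10 kb either side were 84836 and 82172 in the controls and 68479 and 53870 in Snf5 CKO 1 and 2. The ratio of the means was 0.733, against 0.711 over all protein-coding genes, and the exact two-sided permutation p was 0.33, the smallest this design allows. Peaks covered 2.62% and 2.54% of these loci in the controls and 2.12% and 1.67% in Snf5 CKO, where all protein-coding genes had 1.75% and 1.62% against 1.36% and 1.03%. By cluster, 14 of 19 had lower covered bases in both knockout libraries, 1 higher and 4 overlapping. The lowest ratios were at Slc38a4 (0.188), Igf2 (0.259), Gnas (0.401) and the Kcnq1 cluster (0.431). Without Control 1 the ratio at Slc38a4 was 0.305, and at Igf2 it was 0.0980 with peaks of −log10 q of at least 3 and 0.476 with 50 kb either side. Gnas had 0.261 with that peak filter. Ratios above 1 were at Plagl1 (1.59), Grb10 with Ddc (1.15), the Peg3 cluster (1.08) and the Prader-Willi/Angelman cluster (1.06), and the groups overlapped at the last 3 of these. Gene by gene, 29 of the 37 members with a peak in every library had fewer covered bases in both knockout libraries. The 2 members with more were Snrpn and Plagl1. Of all such genes 67.3% had fewer and 3.14% had more.

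**Figure D5:**
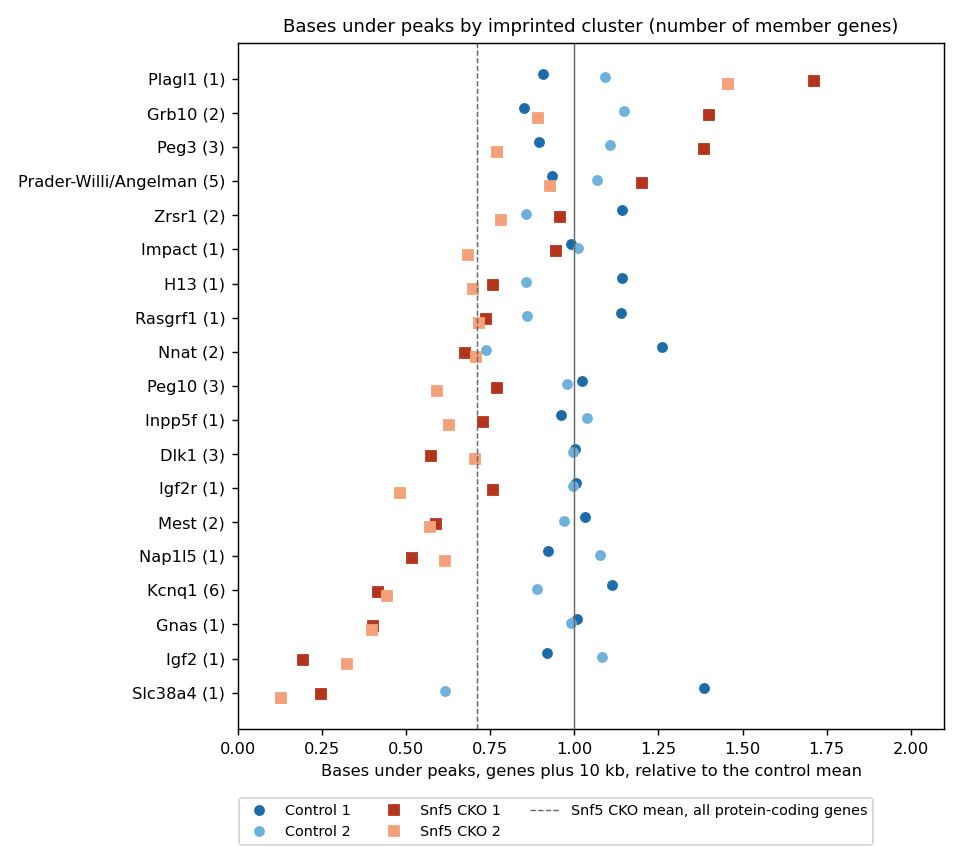
Bases under peaks over the member genes with 10 kb either side in each of 19 imprinted clusters, each library divided by the mean of the 2 controls (x axis, ratio), with the number of member genes in parentheses and the knockout ratio over all protein-coding genes as a dashed line. Both squares lie below both circles in 14 clusters, and Plagl1 alone has both squares above both circles.

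The RefSeq promoter table gave 49 annotated starts for 32 of the members, and none for Cdkn1c, Kcnq1, Peg10, Sgce, Rtl1 and Impact. Within 1 kb of these starts 32 were kept, 1 lost, 0 gained, 6 mixed and 10 closed, beside 55.7% kept, 2.67% lost, 0.198% gained and 34.3% closed of 21263 starts at all genes. Promoter sequences run from 250 bases before to 50 after each start. The word TGCCGC, on either strand, occurred in 11 of the 49 member promoters (22.4%) and in 14.1% of the 21263. Promoters of starts lying close together overlap, so the same Mest words count more than once among the 11. The YY1 word GCCATNTT, also searched on both strands and able to overlap TGCCGC at its ends, occurred in 3 (6.12%) and in 6.37%. The median number of CpG was 17 in member promoters, from 2 to 48, and 13 in all. It was 17.5 at the 32 kept member starts and 3.5 at the 10 closed ones, and over all genes 23 at kept and 3 at closed starts. Open starts of imprinted genes were thus CpG-rich and closed ones CpG-poor, as at other genes, and these matches describe letters and not bound sites.

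A wider list of 48 other genes reported as imprinted was read in the same way, at the outermost annotated ends alone. Of these 46 were found in the gene table. They include noncoding RNA genes such as H19, Kcnq1ot1, Airn and Xist, while the shares set beside them are of protein-coding genes alone. Kept genes numbered 24 (52.2% of those found, against 55% of all protein-coding genes), lost 3 (6.52%, against 2.97%), gained 0, mixed 6 and closed 13. The lost ones were Sfmbt2 (282 and 249 bp in the controls), a Polycomb-related gene needed in the placenta, Zdbf2 (973 and 647 bp), a paternally expressed zinc-finger gene, and Xist (751 and 615 bp), the RNA that silences an X chromosome. Of the 24 kept, 19 were shorter in both knockout libraries and 1, Snurf, was longer, where 77.3% of all kept protein-coding genes were shorter, and the median log2 ratio was -0.61 beside -0.41. Among the 19 kept protein-coding genes of this list limma called 2 shorter, beside 8.06% of all kept genes, and 0 longer. Both lie beside the Kcnq1 cluster. Tnfrsf22, a decoy death receptor, had 1066 and 966 bp in the controls against 329 and 301 bp (log2 ratio -1.69, SE 0.128, adjusted p = 0.0399 by limma). Dhcr7, the last enzyme of cholesterol synthesis, had 1175 and 1053 bp against 610 and 483 bp (log2 ratio -1.04, SE 0.169, adjusted p = 0.0468 by limma). Other genes beside that cluster were also shorter in both knockout libraries: Tnfrsf23 had 1058 and 836 bp against 513 and 423 bp, Osbpl5 had 1199 and 559 bp against 252 and 296 bp, and Nap1l4 had 1416 and 1417 bp against 1071 and 966 bp. H19, the noncoding RNA next to Igf2, had 453 and 471 bp in the controls, 381 bp in Snf5 CKO 1 and none in Snf5 CKO 2. Th, Ins2 and Tspan32 in the same stretch were closed in every library.

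Genes that place, read or erase imprints were the last list, with 20 genes. Kept genes numbered 14 (70% of the list, against 55% of all genes), lost 1, gained 0 and closed 5, the closed ones being Dnmt1, Dnmt3a, Dnmt3l, Zfp57 and Nlrp2. Closed here means no peak within 1 kb of the outermost annotated start or end. Starts inside these genes were not examined, so the call does not show that all their promoters were closed. The lost gene was Ctcfl, a germline relative of the insulator protein CTCF, with 858 and 395 bp in the controls. Of the 14 kept, 11 were shorter in both knockout libraries and 1 longer, which is 78.6% shorter beside 77.3% of all kept genes. Their median log2 ratio was -0.53 beside -0.41, and limma called 3 shorter, beside 8.06% of all kept genes, and 0 longer. Tet1, which oxidises methylated cytosine and takes part in erasing imprints, had 1833 and 1870 bp in the controls and 657 and 513 bp in Snf5 CKO (log2 ratio -1.67, SE 0.166, adjusted p = 0.0399 by limma). Zfp445, a zinc-finger protein that protects imprints, had -1.47 (adjusted p = 0.0399 by limma), and Uhrf1, which guides maintenance methylation, had -0.98 (adjusted p = 0.0418 by limma). Dppa3, which shields the maternal genome from demethylation after fertilisation, was the longer one, with 200 and 268 bp in the controls and 562 and 409 bp in Snf5 CKO (log2 ratio 1.05, SE 0.242, limma adjusted p = 0.0641).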

How the data were processed

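ATAC-seq was analysed for 2 Control and 2 Snf5 CKO libraries, grouped by the labels' genotype. The submitters' processing notes name, without roles, MACS2 2.2.7.1, Picard 2.25.2, SAMtools 1.10, Bowtie2 2.4.2 and Trim Galore 0.6.5, and the build mm10. For peak thresholds, duplicates and read shift, parameters were not given in the sources used here. Per library, the authors deposited 1 separately called broad peak list, whose columns hold a score, a fold enrichment (a ratio to the local background) and, for each peak, −log10 of its p and q. The lowest deposited −log10 q was 1.00 to 1.02. No counts were used, depth is unknown, and openness too weak for a library's depth gives no peak.

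Gene positions and promoter sequences came from RefSeq tables of GRCm38.p6. Strand was taken from the promoter table. For the 6 members not in it (Cdkn1c, Kcnq1, Peg10, Sgce, Rtl1 and Impact) the lower and higher coordinate ends were used, which leaves the gene-end call unchanged. A peak counted at a gene end with 1 bp in the window. Lengths of genes kept in all libraries were compared by limma 3.58.1 in R 4.3.3 on log2 summed length, group only, two-sided, with Benjamini-Hochberg adjustment over 12030 genes and a threshold of 0.05. The limma step was tried on simulated lengths with as many genes lengthened as shortened and no general shift. That setting differs from these data, so it does not bear on the calls made here. Tables were made with Python 3.11.15, pandas 2.3.3 and numpy 2.4.6. No test used fold or −log10 q, which describe, rank or filter the peaks of a list.

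The members and gene lists were chosen with earlier results of these data known, and 1 gene of the last list is not reported here. All members were named, with values in every library for those lost or gained, past the length threshold, or of highest mean fold in their cluster, and in each cluster the lost and gained region of highest fold. The promoters of Nap1l5, Grb10 and Plagl1 were those with most ZFP57 words among members kept at a gene end, with ties broken, after the data were seen, by CpG number. Those of Mest (closed at its outermost ends), Nnat and Peg3 were chosen after their values were seen. Alternatives changed the windows, the flank, the peak filter, the list length, the measure of length, the centring, the replicate block, limma's trend and the libraries used.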

Additional observations from a re-analysis of the deposited data

How the results depend on the processing

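The count of 1 lost member was 2 with 2 kb windows, 2 with peaks of −log10 q of at least 3, 7 with 500 bp of a window covered and 0 with the gene start alone, and ranged from 1 to 3 when a library was left out. Nnat itself stayed lost with 2 kb windows and when any library was left out. It was closed with peaks of −log10 q of at least 3 and with 500 bp of a window covered. The 7 lost with 500 bp covered were Peg3, Usp29, Ndn, Ascl2, Phlda2, Dlk1 and Slc38a4. Nnat was mixed with 500 bp windows, with lists cut to the same length and with the gene start alone. Gnas and Impact were among those called lost under a stricter filter or shorter lists. Slc38a4 and Impact were called lost without Snf5 CKO 1, and both were kept without Snf5 CKO 2. Gained members stayed at 0 under all 11 alternatives, and kept members ranged from 19 to 30. The 5 members called shorter by limma became 8 with the longest touching peak, 8 with limma's trend, 0 after centring on library medians, and 0 after centring with all pieces of the merged region. They ranged from 0 to 7 with a library left out, 0 without Control 1, Control 2 or Snf5 CKO 2 and 7 without Snf5 CKO 1, where the lone library of an arm is assumed to vary like the others. Over all genes the shorter calls ranged from 0 to 2176. Each of Ascl2, Kcnq1 and Phlda2 kept a negative log2 ratio in every alternative that gave one, and passed the threshold in 6 of 15, 6 of 13 and 6 of 13. Peg3 and Usp29 passed in 5 of 15 and reversed to 0.28 in 1, centring with all pieces of the merged region. The median log2 ratio of -0.51 was -0.46 with all pieces, -0.068 after centring and -0.023 after centring with all pieces, and lay between -0.53 and -0.48 with a library left out. Uses of all pieces and of centring with a block were chosen after seeing the data. The cause of these differences was not tested.

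Whether the replicate numbers in the labels pair the libraries could not be decided. Deviations of same-numbered libraries from their group means had a correlation of -0.01. With 2 libraries a group, the value for different numbers, 0.01, is the same number with its sign reversed. Such a correlation cannot show whether a number marks a pair. With the replicate number as a block limma called 0 members and 0 of all genes, with 15 members and 4611 genes at an unadjusted p below 0.05, and with centring and the block it called 0 members with a median of -0.068, which leaves few degrees of freedom.

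Of the merged regions, the 18 lost became 10 with lists cut to the same length and 30 with 50 kb either side, and ranged from 22 to 32 with a library left out, where the 7 gained ranged from 9 to 32, highest without Snf5 CKO 2. Fewer libraries make both calls easier to meet. The ratio of covered bases over all members lay between 0.645 and 0.820 under all 8 alternatives, and that of Plagl1 between 1.12 and 2.05. Unknown depth, separate peak calling and 2 libraries a group limit all of these values, and a missing peak was not detectable rather than absent.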

Other observations

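Further genes reported as imprinted lie in the same clusters as the members, and their peaks were read at the outermost annotated ends alone. At the Peg10 cluster Casd1, a sialic acid acetyltransferase gene, had 1544 and 1490 bp of peak length in the controls and 1277 and 1352 bp in Snf5 CKO, and Pon2, of the paraoxonase family, had 1266 and 1398 bp against 846 and 747 bp. Both knockout lengths were below both controls at these genes. Pon3 had 588 and 700 bp in the controls, 225 bp in Snf5 CKO 1 and none in Snf5 CKO 2, Asb4 had a peak only in Control 1 (816 bp), Tfpi2 had none, and the groups overlapped at the calcitonin receptor gene Calcr (984 and 1384 bp against 1023 and 607 bp). Klf14, a transcription factor gene near Mest, had 1491 and 1410 bp against 1214 and 1055 bp, and the microRNA gene Mir335 inside Mest had no peak. Herc3, the host of Nap1l5, had 1186 and 1201 bp against 910 and 1144 bp, and Zim3 near Usp29 had 1181 and 1096 bp against 845 and 766 bp, while Zim2 had none. At the Prader-Willi/Angelman cluster Peg12 had 1192 and 1565 bp against 1593 and 1254 bp, with overlapping groups, and Atp10a and Snhg14 had no peak. Slc22a3, a cation transporter gene beyond Igf2r, had 862 and 957 bp against 897 and 773 bp, and Slc22a2 had none. Tssc4 in the Kcnq1 cluster had 1492 and 1292 bp against 821 and 867 bp, and the noncoding Rian and Mirg near Dlk1 had no peak in any library.

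A few regions of high fold were found in a single library. The highest was a 242 bp peak inside Rasgrf1 at chr9:89915913-89916154 with a fold of 9.48 in Snf5 CKO 2. Inside Kcnq1 a 273 bp peak at chr7:143269799-143270071 had a fold of 5.83 in Snf5 CKO 1 and a 316 bp peak at chr7:143254202-143254517 had a fold of 5.50 in Control 1. None of these has a second library to support it.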
